A study of Mus musculus with 6 samples.

Results

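A set of 10 genes that move calcium between the endoplasmic reticulum, the cytosol and the outside of the cell was followed in mouse macrophages exposed to ADP. They are the inositol trisphosphate receptors Itpr1, Itpr2 and Itpr3, the store sensors Stim1 and Stim2, the entry channels Orai1 and Orai2, the store pumps Atp2a2 and Atp2a3 and the plasma membrane pump Atp2b1. They were chosen by gene name among the non-control probes of the array, which gave 15 probes on 24 spots of 55681 probes in all. Of the whole array 26587 probes passed the filter for probes well above background, among them all 15 member probes, and with 1 probe kept per gene 19575 features were tested. The rule used no measured value, but the genes were proposed with earlier results of these data known.

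Bone marrow cells of C57BL/6 mice were turned into macrophages in L929-conditioned medium. The treated group was exposed to 100 µM ADP for 6 h (3 arrays, ADP 1 to 3), and the other group had a control treatment (3 arrays, CON 1 to 3). Each sample had 1 one-colour Agilent array, and the replicates are, per the submitters, separate experiments with a different donor each. A level below is the log2 processed signal less that of the 75th percentile on the same array, so a level of 0 is that percentile, and a difference is the ADP mean level less the control mean level, in log2 units.

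Calcium leaves the endoplasmic reticulum through inositol trisphosphate receptors once a receptor at the cell surface has activated phospholipase C, as P2Y receptors for ADP can do. When the store empties, STIM proteins in its membrane sense the loss and open ORAI channels in the plasma membrane, which is store-operated calcium entry. SERCA pumps, encoded by the Atp2a genes, refill the store, and PMCA pumps, encoded by the Atp2b genes, drive calcium out of the cell.

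Slide 1 held ADP 1, CON 1 and CON 2, and slide 2 held ADP 2, ADP 3 and CON 3. Each slide was scanned once, so slide and scan coincide, and slide-blocked and within-slide values are given beside the pooled one for each of the 10 genes. The place of the array on its slide, as the file headers number it, was row 1 for all 3 ADP arrays and row 4 for all 3 control arrays, so place and treatment cannot be told apart. The 75th percentile of the signal ran from 455 to 549 in either group, and no spot was saturated. All 7 macrophage markers, such as Adgre1, Cd68 and Csf1r, were well above background on all 6 arrays, with a summed signal of 392571 to 693635 on ADP arrays and 361135 to 650208 on control arrays. One of the 7, Mertk, differed by -0.61 ± 0.18 (SE, limma adjusted p = 0.288) with all ADP arrays below all controls, and its part in the results was not tested. Of 26 markers of other marrow cells on the array, 14 passed the filter and 9, among them Cd3d and Klf1, were well above background on no array. Among those that passed, the megakaryocyte gene Pf4 had signals of 73845 to 115061 and the fibroblast gene Col1a2 of 3454 to 4753. The endothelial gene Kdr had signals of 1666 to 3473 and the T cell gene Cd3e of 194 to 559. These were the brightest markers of their cell types, and the others read lower. Gp9 (megakaryocyte) had signals of 31 to 61, and Itga2b did not pass the filter. Col1a1 and Pdgfra (fibroblast) had signals of 1036 to 1836 and 17 to 31. Cdh5 (endothelial) had signals of 51 to 81, and Tek did not pass. Which cells these signals came from was not tested. One of the 14 had an unadjusted p under 0.05, the neutrophil gene S100a8, with a difference of 0.32 ± 0.12 (SE, limma, adjusted p = 0.345). The neutrophil markers summed to 10671 to 15722 on ADP arrays and 9223 to 10884 on control arrays, and their part in the results was not tested. Nearly all of that sum was S100a8 itself, at 9103 to 15560, so it is no separate reading. S100a9 had signals of 51 to 131 and Mpo of 30 to 64, and Ly6g was not on the array.

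Transcripts for the calcium pumps Atp2b1 and Atp2a3 read lower on all 3 ADP arrays than on any control array, at 0.773 and 0.821 times the control level, and so did those for the release channel Itpr3 at 0.868 times. The sensors Stim1 and Stim2 and the entry channel Orai2 had mean levels 1.16 to 1.29 times those of controls, with groups that overlapped. In such bulk RNA, fewer cells of a type and less RNA per cell cannot be told apart. None of the 10 genes passed limma's test at a Benjamini-Hochberg adjusted p of 0.05, where 0 of 19575 features did (0% called). Their adjusted p ran from 0.304 to 0.988, and none differed 2-fold or more. At an unadjusted p under 0.05, 2 of the 10 were lower and 0 higher, against 6.18% of all features lower and 6.55% higher. That count was 0 without CON 1, 0 without CON 2 and 1 without ADP 3, and was not taken over all features in those fits. The groups did not overlap for 3 of the 10, all with ADP below, where 9.72% of all features had ADP below and 9.67% had ADP above. This one-sided count depends on the scaling. Unscaled signals gave 1 gene with ADP below (Atp2b1) and 2 above (Orai2 and Atp2a2). Median scaling gave 2 below (Atp2a3 and Atp2b1) and 1 above (Orai2), and quantile normalization gave 3 below and 1 above (Stim1). The shares over all features were not counted under these other scalings. The median difference of the 10 genes was -0.03, beside 0.0044 for all features, with 4 genes above 0 and 6 below.

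**Figure D1:**
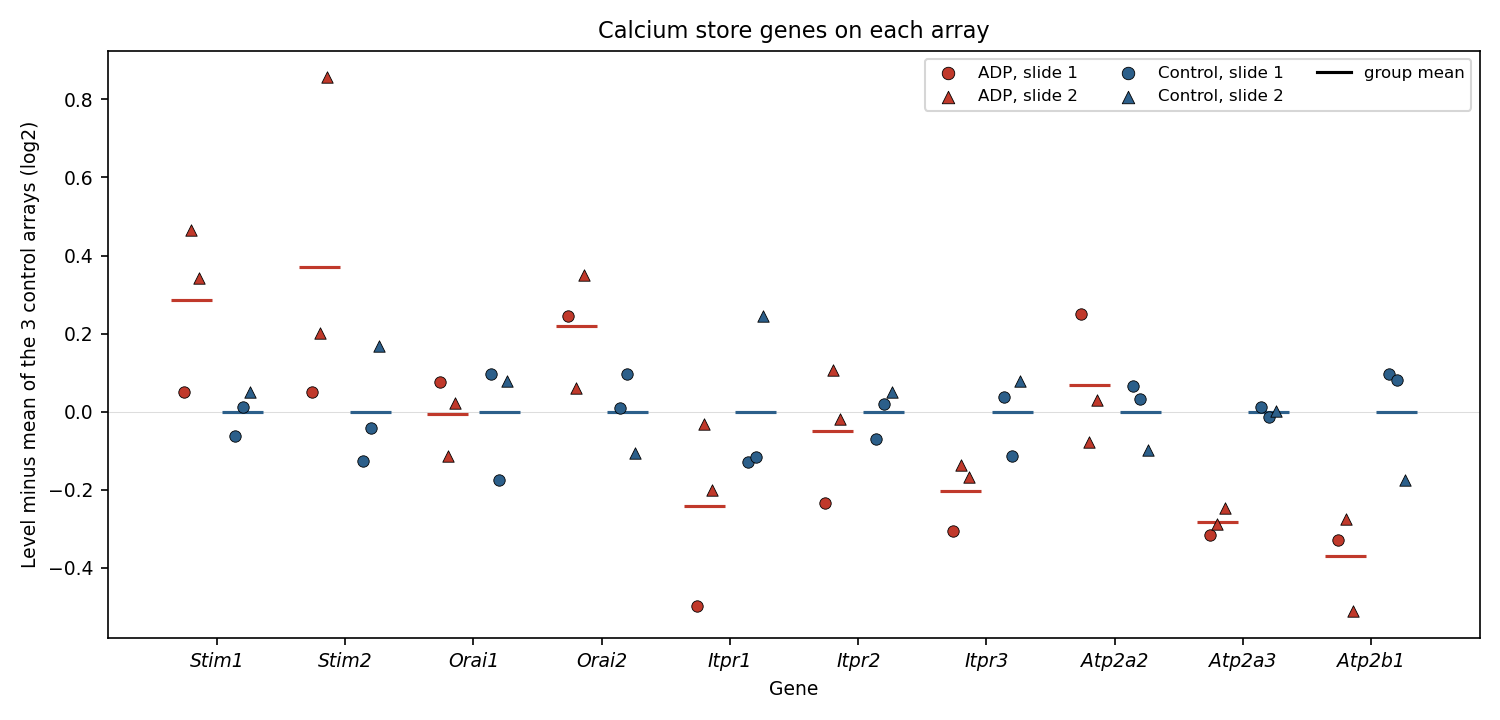
Level of each of the 10 genes on each array, as the difference from the mean of the 3 control arrays (log2), with ADP arrays in red left of control arrays in blue, circles for slide 1, triangles for slide 2 and bars for group means. Every ADP point of Itpr3, Atp2a3 and Atp2b1 lies below every control point, while the other 7 genes overlap.

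Among the release channels, Itpr3 had levels of 2.98, 3.15 and 3.12 on ADP arrays and 3.33, 3.17 and 3.37 on control arrays. All ADP arrays lay below all control arrays, but the gap between ADP 2 and CON 2 was only 0.02. The groups overlapped when signals were left unscaled or scaled on the median, and did not overlap after quantile normalization. The difference was -0.20 ± 0.11 (SE, 95% interval -0.47 to 0.06, n = 3 arrays per group), with a limma adjusted p of 0.519, and -0.25 ± 0.08 in the slide-blocked fit (adjusted p = 0.142). Within slide 1 it was -0.27 and within slide 2 it was -0.23. This gene alone among the members was printed on 10 spots per array, and the SD over those spots was 0.02 to 0.04 on an array. That spread is technical and is between single spots, on CON 2 with 1 spot marked as an outlier included. The gap of 0.02 is between means over spots, so it cannot be read against that spread directly.

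The Itpr3 probe lies at chr17:27259102-27259161 on the plus strand of mm9, the build of the probe coordinates in the files. Its last 30 bases, at chr17:27259132-27259161, are shown with AATAAA, the usual polyadenylation signal, in capitals, since it usually stands near the end of a transcript. The hexamer stands in 10.1% of the 55681 probes.
Itpr3 A_51_P104897: ttaattgccttaAATAAAttaatagactcc

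Itpr1, which is the receptor best known from neurons, had levels of 0.38, 0.85 and 0.68 on ADP arrays and 0.75, 0.77 and 1.13 on control arrays. Its groups overlapped, because both ADP arrays of slide 2 were near the controls of slide 1, while CON 3 was 0.37 above the mean of CON 1 and CON 2. The pooled difference was -0.24 ± 0.17 (SE, 95% interval -0.65 to 0.16, limma adjusted p = 0.639). It was -0.12 without ADP 1 and -0.12 without CON 3. Inside the slides the differences were close to each other, at -0.37 for slide 1 and -0.36 for slide 2. In the slide-blocked fit the difference was -0.37 ± 0.08 (adjusted p = 0.0807). With the block and trended, robust variances, where 9.91% of features were called, Itpr1 was the only member called (adjusted p = 0.0380).

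Itpr2, the isoform with the highest known affinity for inositol trisphosphate, had levels of 3.09, 3.43 and 3.31 on ADP arrays and 3.25, 3.34 and 3.37 on control arrays. ADP 1 was the lowest and ADP 2 the highest of the 6, so the groups overlapped. The difference was -0.05 ± 0.12 (SE, 95% interval -0.34 to 0.25, limma adjusted p = 0.897), with -0.21 within slide 1, -0.0073 within slide 2 and -0.11 in the slide-blocked fit (adjusted p = 0.521). The 3 receptor probes were well above background on every array, at chr6:108501025-108501084 (plus) for Itpr1 and chr6:146060005-146060064 (minus) for Itpr2 beside the Itpr3 site given above. Over the 6 arrays, which share 2 slides, Itpr1 correlated with Itpr3 at r = 0.85 and with Itpr2 at r = 0.83, as a description.

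Stim1, the main sensor of store depletion in most cells, had levels of 3.44, 3.85 and 3.73 on ADP arrays and 3.33, 3.40 and 3.44 on control arrays. ADP 2 and ADP 3 stood above every control, and ADP 1 was level with CON 3. The difference was 0.29 ± 0.13 (SE, 95% interval -0.04 to 0.61, limma adjusted p = 0.456). Within slide 1 it was 0.07 and within slide 2 it was 0.35, and it was 0.21 in the slide-blocked fit (adjusted p = 0.256). Whether the slides differ in it was not tested. A second Stim1 probe, which shares 51 of its 60 bases with the first and so is no independent reading, had signals of 3438, 6413 and 6335 on ADP arrays and 3422, 3476 and 5133 on control arrays. Its difference was 0.32 ± 0.20 (probe-level fit, adjusted p = 0.605), and 0.01 within slide 1.

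Stim2, a sensor that responds to smaller losses from the store than Stim1, was measured by a dim probe, with processed signals of 132, 175 and 277 on ADP arrays and 116, 126 and 172 on control arrays. The ADP 3 array stood apart at the top, and ADP 1 lay between the controls. On the scaled levels the difference was 0.37 ± 0.22 (SE, 95% interval -0.17 to 0.91, limma adjusted p = 0.578), with 0.14 within slide 1, 0.36 within slide 2 and 0.25 in the slide-blocked fit (adjusted p = 0.488). It was 0.13 without ADP 3. Of the 10 genes it had the widest interval.

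The Stim2 probe is printed whole because it ends on a stop codon, TGA in capitals, while the second Stim1 probe is shown by its last 30 bases because they hold AATAAA, in capitals. The Stim2 probe lies at chr5:54509929-54509988 (plus, mm9), and the Stim1 bases lie at chr7:109585342-109585371 (plus, mm9). The first Stim1 probe, which gave the levels above, does not hold AATAAA. The sensors were read by different probes, and their levels are not compared with each other.
Stim2 A_55_P1971220: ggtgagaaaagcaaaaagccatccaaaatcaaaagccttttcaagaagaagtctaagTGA
Stim1 A_55_P2022342: aaccaaaagacaaacagttttaaAATAAAa

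Orai1, the pore of the classical store-operated current, had levels of 1.92, 1.72 and 1.86 on ADP arrays and 1.94, 1.66 and 1.92 on control arrays. The arrays of the groups were interleaved. The difference was -0.0059 with a 95% interval of -0.30 to 0.29 (limma adjusted p = 0.988). It was 0.12 within slide 1, -0.13 within slide 2 and -0.0053 in the slide-blocked fit (adjusted p = 0.984), and Orai1 was the only member whose direction turned between slides. A second probe 533 bases away differed by -0.08 ± 0.12 (probe-level fit, adjusted p = 0.816). Its direction did not turn, at -0.15 within slide 1, -0.13 within slide 2 and -0.14 in the slide-blocked fit (adjusted p = 0.331).

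Orai2, a paralogue that can form channels with Orai1, had levels of 3.32, 3.13 and 3.42 on ADP arrays and 3.08, 3.17 and 2.97 on control arrays. ADP 1 and ADP 3 lay above every control, and ADP 2 lay below CON 2, so the groups overlapped. With unscaled or median-scaled signals all ADP arrays lay above all controls. The difference was 0.22 ± 0.12 (SE, 95% interval -0.07 to 0.51, limma adjusted p = 0.536), with 0.19 within slide 1, 0.31 within slide 2 and 0.25 in the slide-blocked fit (adjusted p = 0.234). A second probe, 1141 bases away, had levels of 2.11, 1.43 and 1.75 on ADP arrays and 1.33, 1.61 and 1.01 on control arrays. Its controls differed between slides by -0.46, and the pooled difference was 0.45 ± 0.22 (probe-level fit, adjusted p = 0.489). Within slides it was 0.64 and 0.58, and in the slide-blocked fit it was 0.61 ± 0.13 (adjusted p = 0.0865). Both Orai2 probes thus read higher on ADP arrays in both slides, and neither passed the adjusted test without a block or with the slide block alone. With the block and trended, robust variances the second probe was called over probes (adjusted p = 0.0259).

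The first Orai2 probe (chr5:136623383-136623442, minus, mm9) holds a simple repeat, and the 30 bases around it, at chr5:136623383-136623412, are printed with the repeat in capitals, since other probes hold it too. That stretch of 15 bases also stands in 23 other probes on the same strand and in 19 on the opposite strand. Of those, 36 passed the filter, with differences of -0.63 to 0.49 and a median of -0.02. Whether other transcripts add to the Orai2 signal was not tested.
Orai2 A_55_P2066543: gtggtttTTTGTTTGTTTGTTTgttgattt

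Atp2b1, the PMCA pump found in most tissues, had levels of 2.17, 2.22 and 1.99 on ADP arrays and 2.59, 2.58 and 2.32 on control arrays. All ADP arrays lay below all controls, with a gap of 0.10 between ADP 2 and CON 3. This order held with unscaled, quantile-normalized and median-scaled signals. The mean level was 2.13 ± 0.12 on ADP arrays and 2.50 ± 0.15 on control arrays (SD, n = 3 each), a difference of -0.37 ± 0.13 (SE, 95% interval -0.68 to -0.07). The limma p was 0.0241 before and 0.319 after adjustment. Within slide 1 the difference was -0.42, within slide 2 it was -0.22, and with the slide as a block it was -0.32 ± 0.10 (adjusted p = 0.143).

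A second Atp2b1 probe lies 54.1 kb away and shares no bases with the first. Its levels were 0.20, 0.51 and 0.21 on ADP arrays and 0.47, 0.78 and 0.54 on control arrays. ADP 1 and ADP 3 were the lowest of the 6, while ADP 2 lay between CON 1 and CON 3. The difference was -0.29 ± 0.14 (probe-level fit, adjusted p = 0.479), and -0.43 and -0.18 within the slides. The first probe, at chr10:98431670-98431729, is printed whole and the second by its last 30 bases, at chr10:98485805-98485834 (both plus, mm9), since both read lower on ADP arrays at separate sites of the gene.
Atp2b1 A_66_P138001: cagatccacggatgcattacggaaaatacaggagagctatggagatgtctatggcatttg
Atp2b1 A_65_P10351: actgagtcttttcacatattgtgacggaca

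Atp2a3, the SERCA pump known from blood cells and epithelia, had levels of -0.63, -0.60 and -0.56 on ADP arrays and -0.30, -0.33 and -0.31 on control arrays. The groups were narrow and apart, with a gap of 0.23, the widest of the 10 genes. They stayed apart with quantile and median scaling and overlapped when signals were left unscaled. The mean level was -0.60 ± 0.03 on ADP arrays and -0.32 ± 0.01 on control arrays (SD, n = 3 each), a difference of -0.28 ± 0.09 (SE, 95% interval -0.50 to -0.06). The limma p was 0.0190 before and 0.304 after adjustment, the smallest of the members. The difference was -0.32 within slide 1 and -0.27 within slide 2, and -0.29 ± 0.07 in the slide-blocked fit (adjusted p = 0.0891). Its 1 probe lies at chr11:72806289-72806348 (plus, mm9), and the first 30 bases, at chr11:72806289-72806318, are given to identify the site read.
Atp2a3 A_55_P1965772: attttatatgtaaatcaagattcacatcac

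Atp2a2, the SERCA pump present in nearly all cells, had levels of 0.94, 0.62 and 0.72 on ADP arrays and 0.76, 0.73 and 0.60 on control arrays. ADP 1 was the highest of the 6, and the other ADP arrays lay among the controls. The difference was 0.07 ± 0.12 (SE, 95% interval -0.23 to 0.37, limma adjusted p = 0.858), with 0.20 within slide 1, 0.07 within slide 2 and 0.14 in the slide-blocked fit (adjusted p = 0.352). A second probe 6.96 kb away differed by -0.04 ± 0.16 (probe-level fit, adjusted p = 0.939). Its direction turned once the slide was taken into account, at 0.08 within either slide and 0.08 in the slide-blocked fit. The groups thus overlapped for Atp2a2 and not for Atp2a3, and the difference between these genes was not tested. The second Atp2a2 probe, at chr5:122910660-122910719 (minus, mm9), is printed whole to identify the site read.
Atp2a2 A_52_P168097: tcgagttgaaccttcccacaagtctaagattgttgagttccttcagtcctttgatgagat

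**Figure D2:**
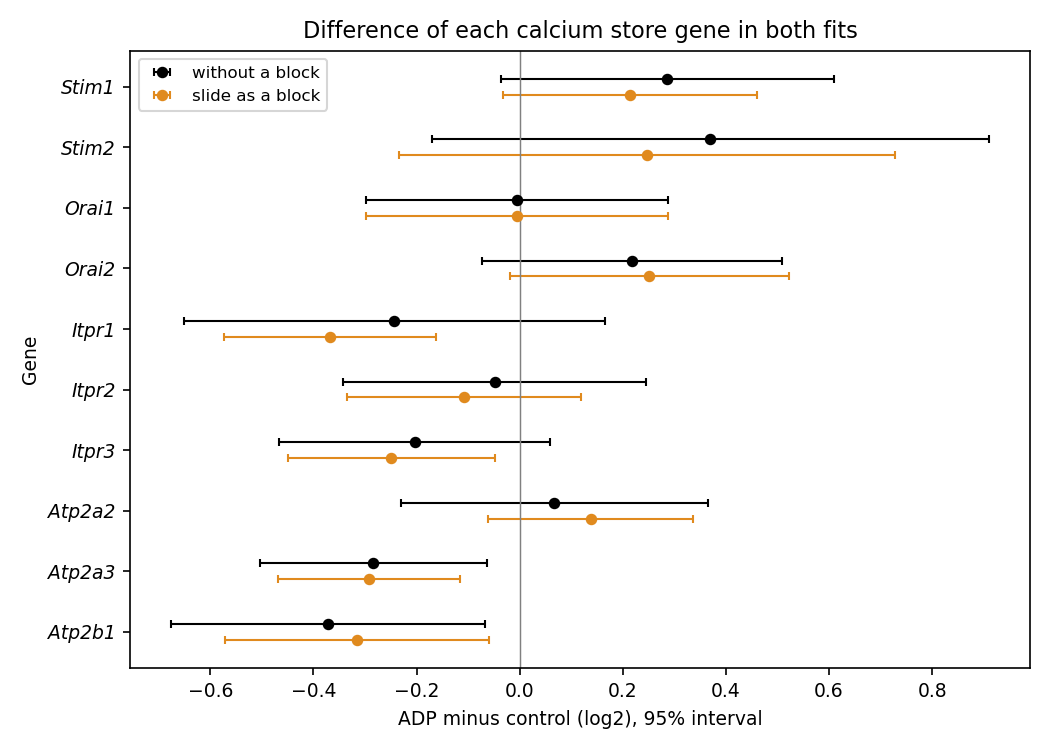
ADP minus control difference of each gene (log2, points) with its 95% interval (bars), from limma without a block in black and with the slide as a block in orange. Without a block the intervals of Atp2a3 and Atp2b1 alone lie below 0, and with the block those of Itpr1 and Itpr3 do as well.

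With the slide as a block, 4 of the 10 genes had an unadjusted p under 0.05, all lower (Itpr1, Itpr3, Atp2a3 and Atp2b1), and 0 were higher, where 13.6% of all features were lower and 10.8% higher. None passed after adjustment, with 0 of all features called in that fit too (0%). The median difference of the 10 was then -0.06, beside -0.0086 for all features. The direction was the same within both slides for 9 of the 10 genes, 5 lower and 4 higher, as for 62% of all features.

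**Figure D3:**
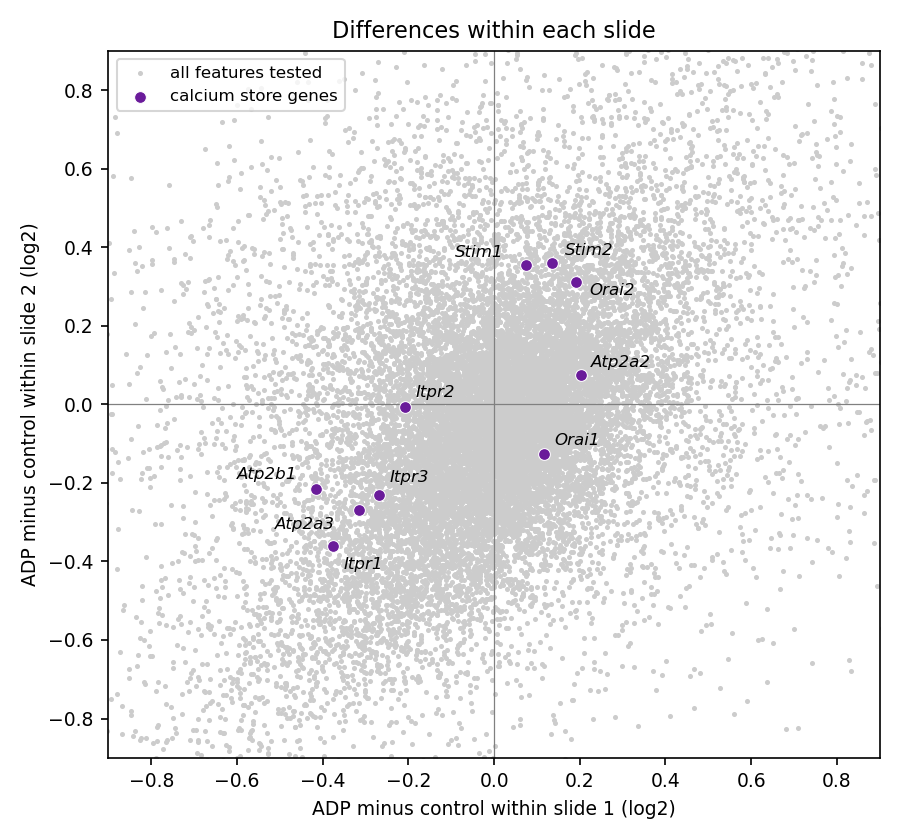
ADP minus control difference within slide 1 (horizontal, log2) against that within slide 2 (vertical, log2), with the 10 genes in purple over all features tested in grey. Itpr1, Itpr3, Atp2a3 and Atp2b1 lie together at lower left, Stim1, Stim2 and Orai2 at upper right, and 1257 of 19575 features lie outside the axes.

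The other genes of calcium handling were described from 6 lists with 100 genes, of which 79 were measured. At an unadjusted p under 0.05, 1 of the 79 was higher and 7 were lower, against 6.55% of all features higher and 6.18% lower, and none passed after adjustment in that fit. In the slide-blocked fit 7 were higher and 10 lower, against 10.8% and 13.6% of all features, and none passed after adjustment. With the block and trended, robust variances 8 of the 79 were called, 3 higher and 5 lower, where 9.91% of features were called. The median difference of the 79 without a block was 0.01, with 41 above 0 and 38 below. Most of the genes with an unadjusted p under 0.05 without a block were on the list of other entry and plasma membrane channels. At such a p, 1 of its 11 measured genes was higher and 5 were lower, and the list median was -0.09. Trpv4, a calcium-permeable channel opened by stretch and warmth, differed by -0.92 ± 0.23 (SE, limma adjusted p = 0.261), and by -0.91 and -1.21 within the slides. It was among the genes called with the block and trended, robust variances, as were Cracr2b, Orai3 and Trpm4 of this list, all lower. The others called in that fit were Tpcn1, a release channel gene that was lower, and Itprip, Atp2c1 and S100a11, which were higher. Cracr2b, a regulator that binds ORAI channels, differed by -0.38 ± 0.12 (adjusted p = 0.294). Homer1, a scaffold that links inositol trisphosphate receptors to other proteins, was the higher one at 0.46 ± 0.14 (adjusted p = 0.286).

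The other lower genes of that list were named after their values were seen. Orai3, the remaining member of the ORAI family, had signals of 4166, 5985 and 5337 on ADP arrays and 6167, 5459 and 7636 on control arrays. Its raw signals overlapped, but its scaled levels did not, at 3.31 ± 0.13 on ADP arrays and 3.70 ± 0.13 on control arrays (SD, n = 3 each). It differed by -0.39 ± 0.12 (SE, limma adjusted p = 0.299), beside -0.0059 for Orai1 and 0.22 for Orai2. Trpm4, a sodium channel that calcium opens, differed by -0.63 ± 0.24 (adjusted p = 0.350), and Trpm2, a calcium-permeable channel opened by ADP-ribose, by -0.26 ± 0.11 (adjusted p = 0.390).

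Of 8 measured genes for other pumps and exchangers, 0 were higher and 1 was lower at an unadjusted p under 0.05, the sodium-calcium exchanger Slc8a3, at -0.74 ± 0.25 (SE, limma adjusted p = 0.321), and -0.93 and -0.22 within the slides. The median of that list was -0.14 without a block and 0.15 with the slide as a block, so its sign turned. Of 14 calcium buffers of the endoplasmic reticulum, Rcn1, which encodes reticulocalbin, was the 1 with such a p, at -0.40 ± 0.12 (adjusted p = 0.288). None of 16 other release channels and regulators had one, the smallest p being that of Itprip, a protein that binds inositol trisphosphate receptors (0.33 ± 0.15, adjusted p = 0.432). Neither did any of 10 genes of the mitochondrial uniporter, led by Mcur1 (-0.15 ± 0.09, adjusted p = 0.595), or of 20 genes on the list of calmodulin and cytosolic calcium sensors.

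**Figure D4:**
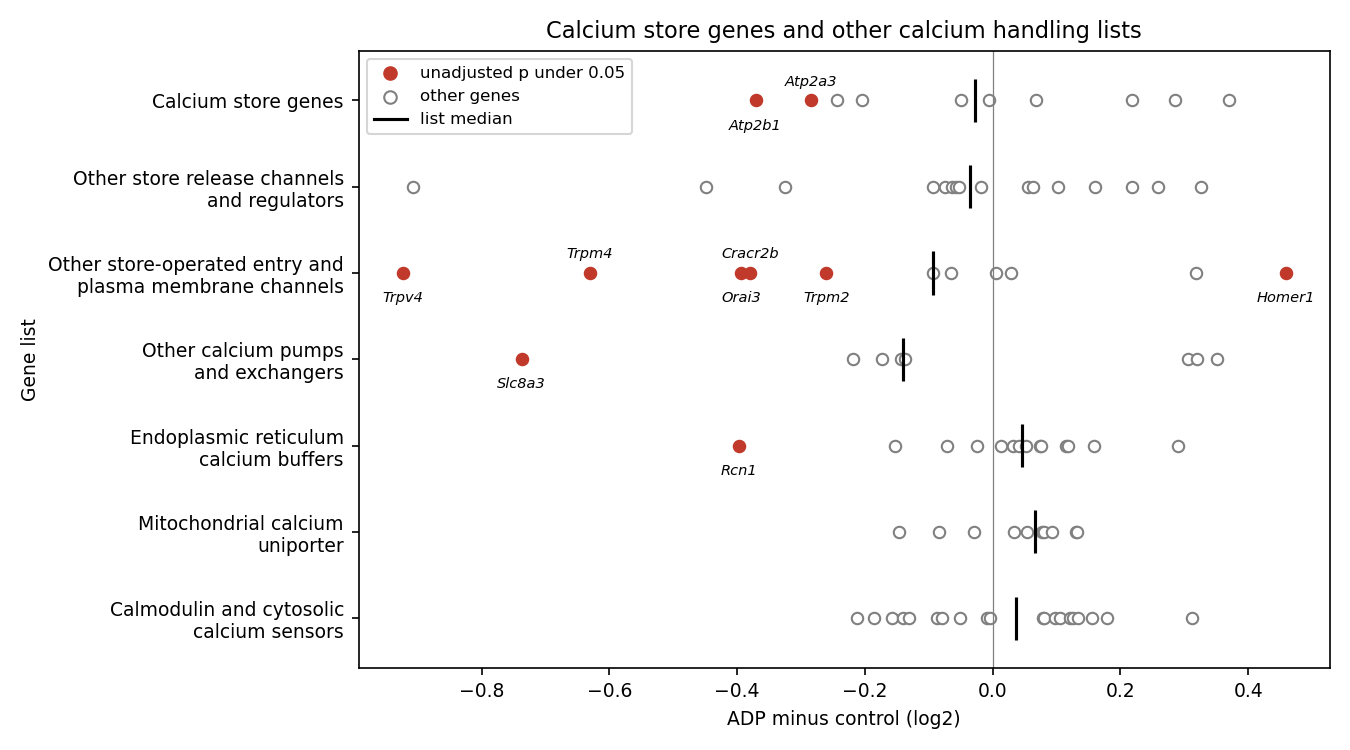
ADP minus control difference (log2) of each measured gene, 1 row per list, with filled points for an unadjusted p under 0.05 and a bar for the list median. The channel list holds 6 of the 8 filled points outside the 10 genes, and 5 of those 6 lie below 0.

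The genes whose levels were most like those of Atp2b1 over the 6 arrays included Zfp263 (r = 0.995) and Usp25 (r = 0.992), of 12514 genes compared. For Atp2a3 they were Nck2 (r = 0.999), Hnrnpk (r = 0.988) and Fastk (r = 0.987). With so few arrays high values are common, as 53 genes reached r = 0.95 with Atp2b1 and 36 with Atp2a3.

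RefSeq promoters (GRCm38.p6, 250 bases before the start) were matched by symbol for 8 of the 10 genes, with 9 promoters. Those of the 3 genes whose groups did not overlap are printed with GC boxes (GGGCGG on either strand) in capitals, to show what they share. They are chr10:98914392-98914641 for Atp2b1, chr11:72960919-72961168 for Atp2a3 and chr17:27057054-27057303 for Itpr3, all on the plus strand.
Atp2b1 promoter: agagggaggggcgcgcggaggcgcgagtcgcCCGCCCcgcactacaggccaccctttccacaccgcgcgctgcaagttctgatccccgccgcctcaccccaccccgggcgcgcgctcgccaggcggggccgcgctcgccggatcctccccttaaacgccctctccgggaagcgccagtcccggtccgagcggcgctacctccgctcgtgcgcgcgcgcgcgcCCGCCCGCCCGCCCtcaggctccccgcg
Atp2a3 promoter: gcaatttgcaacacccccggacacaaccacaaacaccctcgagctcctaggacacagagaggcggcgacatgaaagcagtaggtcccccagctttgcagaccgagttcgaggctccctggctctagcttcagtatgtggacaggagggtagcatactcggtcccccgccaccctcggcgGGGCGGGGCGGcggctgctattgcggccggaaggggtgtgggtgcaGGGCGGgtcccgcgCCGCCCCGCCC
Itpr3 promoter: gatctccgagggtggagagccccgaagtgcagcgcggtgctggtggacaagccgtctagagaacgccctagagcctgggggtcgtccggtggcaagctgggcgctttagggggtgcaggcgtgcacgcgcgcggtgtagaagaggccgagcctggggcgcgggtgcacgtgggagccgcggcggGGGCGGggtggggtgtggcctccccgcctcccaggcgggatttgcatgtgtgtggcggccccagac

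Their GC content was 78.4%, 66.8% and 72.0% in that order, where the median of 32851 promoters was 52.4%. All 9 member promoters held at least 1 GC box, which 32.7% of all promoters hold, so genes that read higher and lower shared it. The NFAT core GGAAA, on either strand, stood once in the Orai2 promoter, once in the Atp2b1 promoter printed above and in no other member promoter, against 55.6% of all promoters. No member promoter held the cAMP response element TGACGTCA or the AP-1 site TGACTCA, which 1.55% and 4.46% of all promoters hold. These matches describe letters in a window and say nothing of binding.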

How the data were processed

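RNA of 3 ADP and 3 control macrophage samples was measured on one-colour arrays, and the titles give each sample its group and number. The authors extracted spots with Agilent Feature Extraction 10.7.1.1, per the submitters' processing notes. The deposited spot intensity was background-subtracted within the array and not scaled between arrays, per the file headers. The authors' deposited value table holds the probe signal in linear form, unscaled. Once logged, it lay within 0.001 of the mean log2 signal of a probe's spots, outlier spots left out, for 100% of probes on every array. Its medians were 20.7, 21.9 and 22.7 for ADP 1 to 3 and 18.7, 20.3 and 22.0 for CON 1 to 3.

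Control and outlier spots were left out, spots of a probe were averaged, and the log2 75th percentile of an array was subtracted from its log2 signals. Probes well above background on all 3 arrays of a group were kept, and the brightest probe represented a gene. Probes were named through a RefSeq table (assembly GRCm38.p6), which matched 26582 by accession and 2602 by current symbol. Another 492 matched by synonym, and 26005 kept the file's name. Coordinates are those of the files (mm9). Exon and UTR positions were not analysed here.

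Groups were compared with limma 3.58.1 (R 4.3.3) in a two-sided test with no block and with Benjamini-Hochberg adjustment over 19575 features, or over 26587 probes for second probes. The labels do not tie a replicate number to a donor, and a permutation of 3 against 3 arrays cannot go below p = 0.1. The fit was tested on simulated data. The number of arrays limits the precision. The members and lists were chosen with earlier results of these data known.

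Named were all 10 members and, from each list, the genes past the threshold. As none passed, the 2 higher and the 2 lower with the smallest unadjusted p were named if it was under 0.05, and otherwise the 1 with the smallest p. The 3 genes most like Atp2b1 and Atp2a3 were named as well. Tpcn1, Atp2c1 and S100a11 were named after their values were seen. A few genes that the rule takes are not reported here. Alternatives were normexp background correction (offset 50), quantile, median or no scaling, other filters on dim probes, other choices of probe, trended and robust variances, a block for slide or replicate number, and fits without 1 array.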

Additional observations from a re-analysis of the deposited data

How the results depend on the processing

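No scaling moved the median of all features by over 0.1, the largest being 0.08 in the unscaled value table. There the median of the 10 genes was 0.050 and 0 of them had an unadjusted p under 0.05. That count was 4 with the slide as a block, 5 with quantile normalization added and 6 with trended and robust variances added instead. Of the 79 other calcium genes, 17, 20 and 20 had such a p in those 3 fits. The count rose over all features too, from 2492 of 19575 without a block to 4759 with the slide as a block. It was 5111 with trended and robust variances added to the block. That last fit called 1939 features after adjustment, among them Itpr1 (0.0380), 8 of the 79 and, over probes, the second Orai2 probe (0.0259). Leaving out 1 array gave 0 features called each time, 0 to 3 members with such a p, a member median of -0.07 to -0.0024, and 2 to 10 other calcium genes (2 without CON 1, 4 without ADP 3). How many of all features had such a p was not counted with 1 array left out, in the unscaled value table or with block and quantiles. Directions turned for genes near 0. Orai1 was 0.0312 with normexp, 0.0103 with quantile normalization, 0.0715 in the value table, 0.0304 with block and quantiles, and -0.0938 to 0.0486 with 1 array left out. Itpr2 was 0.0286 in the value table and -0.126 to 0.0438 with 1 array left out. Atp2a2 was -0.0243 to 0.140 with 1 array left out. Its second probe was 0.0362 in the value table, 0.0796 with the slide block, 0.0751 with quantiles added, 0.0796 with trended variances added, and -0.162 to 0.0328 with 1 array left out. The causes were not tested. Over the alternatives Atp2b1 ran from -0.46 to -0.22, Atp2a3 from -0.32 to -0.21, Itpr1 from -0.37 to -0.12, Stim1 from 0.07 to 0.40 and Stim2 from 0.13 to 0.53.

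Same-numbered arrays deviated from their group means with correlations of 0.42, -0.40 and 0.43, and not every array correlated best with its own number. An ADP and a control array of the same slide correlated at 0.42 to 0.47, and those of different slides at -0.60 to -0.27. As ADP 2 and CON 2 lay on different slides, these values follow the slides and cannot show whether the numbers pair the samples. With the replicate block 0 features were called, 2 members and 9 other calcium genes had an unadjusted p under 0.05, and the member median was -0.03. The share of all features with such a p was not counted in that fit. Within-slide differences have no test, so counts by p were not run there.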
